A study of Mus musculus with 4 samples.

Results

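The transcripts described here are those of 5 SMAD proteins and 5 receptors through which bone morphogenetic proteins (BMPs), TGF-beta and related ligands signal: Smad1, Smad2, Smad3, Smad4, Smad5, Bmpr1a, Bmpr1b, Bmpr2, Acvr1 and Tgfbr1. They were taken by gene symbol, and all 10 were found among the 24831 genes listed. All 10 were also among the 13602 genes with enough counts to be tested. RNA was sequenced from mouse somitic gastruloids, which are embryonic stem cell aggregates that lengthen in culture and form presomitic tissue and somites. Both groups carried the same alleles: they were made from E14 triple reporter cells with a Zeb2-HA-FKBP12F36V fusion at the endogenous locus, where HA is an epitope and FKBP12F36V the degron. The dTAG-13 group received 100 nM dTAG-13, a small molecule that directs the tagged ZEB2 protein to degradation, at 72 h and 96 h. The untreated group received none by its label, and the growth protocol gives DMSO as the control. Each well began with 300 cells, the WNT pathway activator CHIR99021 was given at 3 μM at 48 h, and the aggregates were embedded in 10% Matrigel at 96 h. Each group held 2 libraries, numbered 1 and 2. The labels do not say whether the tagged cells are 1 clone, when RNA was taken, or whether the replicates are separate cultures. The p-values therefore reflect the spread among these 4 libraries alone, and part or all of that spread may be technical.

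BMP ligands bind a complex of type I and type II serine/threonine kinase receptors, in which the type II receptor phosphorylates the type I receptor. The type I receptors BMPR1A, BMPR1B and ACVR1 then phosphorylate SMAD1 and SMAD5, while TGFBR1 and the activin and nodal receptors phosphorylate SMAD2 and SMAD3. Phosphorylated SMADs join SMAD4, the partner common to both branches, and enter the nucleus to regulate genes. In the early embryo nodal signals act in the primitive streak, and BMP signals act in ventral and lateral mesoderm and at the border of the neural plate. ZEB2 was first described as a protein that binds SMADs, and its zinc fingers bind CACCT sequences in DNA. In these bulk libraries, fewer cells of a type and less RNA per cell cannot be told apart.

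The dTAG-13 libraries held 12230908 and 11491330 reads assigned to genes, and the untreated libraries 12716172 and 11566746. The 28S ribosomal RNA row Rn28s1 took 2.33% and 0.467% of these reads in dTAG-13 replicates 1 and 2, against 0.310% and 2.49% in untreated replicates 1 and 2. In a fit without that row, too, none of the 10 genes passed. Zeb2 mRNA was at 103 and 108 CPM, counts per 1000000 reads after scaling between libraries, with dTAG-13 and at 98.3 and 164 CPM untreated. That log2 fold change of -0.32 ± 0.25 (SE) had an adjusted p of 1.00 by edgeR and, since dTAG-13 acts on the protein, does not check the labels. Markers of presomitic mesoderm and somites were found in every library, and 6 of 6 of each list were tested. The presomitic marker Ripply2 was near 0 with dTAG-13, at 0.0853 and 0.170 CPM, against 1.66 and 1.33 CPM untreated. Of the 4 endothelial markers, Kdr, Cdh5 and Tek were lower in the replicates numbered 2 of both groups. Pecam1 was slightly lower in replicate 2 untreated, at 18.7 and 18.0 CPM, and not with dTAG-13, at 23.2 and 25.3 CPM. The blood genes Hba-a1, Hbb-bh1 and Gata1 were at or near 0 in every library.

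Promoter sequence was examined for the letters that ZEB2 and SMAD proteins are known to bind, in RefSeq windows on GRCm38.p6 that run from 250 bases before a gene's start to 50 after it. Windows were matched for 8 of the 10 genes, 13 windows in all; Smad2 and Smad4 had none. CACCT or its reverse complement AGGTG stood in a window of 4 of the 8 genes, Bmpr1b, Acvr1, Bmpr2 and Tgfbr1, against 55.2% of all genes. It stood in 6 of the 13 windows, against 51.9% of all 32851 promoter windows. Windows of a gene can overlap, so a site can be counted more than once. The longer CACCTG, which contains CACCT, was found on either strand in 1 of the 8 genes, Bmpr1b, against 22.6% of all genes. That is 1 of the 13 windows, against 20.2% of all windows. The 5 distinct sites, 30 bases each on the gene's own strand, are shown with the matched letters in capitals. They are the places in these windows where the letters of ZEB2, the tagged factor, occur. Both Bmpr1b sites belong to start sites inside the annotated gene.
Bmpr1b, upstream of the pair: cctacttctctcCACCTGcttgaggaaagc
Bmpr1b, downstream of the pair: gccctctccaggAGGTGatgctgaaagacc
Acvr1: cccgaccgccgctggaccagAGGTGagagc
Bmpr2: catggaagcaggCACCTttttcgacccagt
Tgfbr1: gcggcggcggggAGGTGgggcgaggagggg
These lie at chr3:141982403-141982432 (minus), chr3:141931610-141931639 (minus), chr2:58566779-58566808 (minus), chr1:59764032-59764061 (plus) and chr4:47353217-47353246 (plus). The first matched base is 156 and 39 bases before a start site of Bmpr1b and 235 before that of Bmpr2. It is base 41 of Acvr1 and base 8 of Tgfbr1, counting the start site as base 1. None of the windows of Smad1, Smad3, Smad5 or Bmpr1a held CACCT on either strand, which says only that these letters are not in these windows.

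GGCGCC, a GC-rich element that BMP-activated SMADs and SMAD4 are known to bind, reads the same on both strands. It stood in a window of 4 of the 8 genes, Smad5, Bmpr1a, Bmpr2 and Tgfbr1, against 13.4% of all genes. It stood in 5 of the 13 windows, against 11.9% of all windows. The GC content of the members' windows ranged from 48.3% to 83.7%. That of all windows was not computed, so these shares are not matched for GC content. These 4 sites are shown because they are where letters bound by the pathway's own effectors occur.
Smad5: ccccggcgagcgGGCGCCgagcgcttgtcc
Bmpr1a: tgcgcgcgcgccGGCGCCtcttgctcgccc
Bmpr2: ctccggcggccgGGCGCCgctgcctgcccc
Tgfbr1: ggctggagtaaaGGCGCCcagcggtgaggg
They lie at chr13:56703021-56703050 (plus), chr14:34502727-34502756 (minus), chr1:59764162-59764191 (plus) and chr4:47352977-47353006 (plus). The Bmpr1a site, too, belongs to a start site inside the annotated gene. Each match is a description of letters and not evidence of binding.

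The comparison asked whether transcripts of the SMAD effectors and their receptors differ between dTAG-13 and untreated gastruloids. ZEB2 protein was not measured in these libraries. None of the 10 passed an adjusted p of 0.05 in edgeR's quasi-likelihood test fitted over all genes, where 0% of 13602 genes passed. At an unadjusted p under 0.05, 0 of the 10 and 3.52% of all genes (479) were counted. DESeq2 called 0 of the 10 and 0.34% of the 11756 genes to which it gave an adjusted p. With the replicate number added as a term, edgeR called 0 of the 10 and 4.68% of all genes. The CPM values of the groups overlapped for all 10, while they did not overlap for 26.2% of all genes. The median log2 fold change was -0.0060 over the 10 genes and 0.0040 over all genes tested, and the median of the absolute values was 0.018 over the 10 and 0.13 over all genes. The members' log2 fold changes ran from -0.049 for Smad3 to 0.26 for Bmpr1b, with 4 above 0 and 6 below.

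Smad1 and Smad5 encode the closely related effectors of the BMP branch. Smad1 (chromosome 8, 79338395 to 79399428, build GRCm38.p6) was found at 60.7 and 47.2 CPM in dTAG-13 replicates 1 and 2, and at 52.0 and 46.4 CPM in untreated replicates 1 and 2. The highest library was dTAG-13 replicate 1 and the groups overlapped. Its mean was 54.0 ± 9.56 CPM with dTAG-13 and 49.2 ± 3.98 CPM untreated (SD, n = 2 each), a fold of 1.10 with a 95% interval of 0.823 to 1.46 (edgeR, adjusted p = 1.00). Smad5 (chromosome 13, 56703010 to 56742378), with GGCGCC in its promoter, was at 185 and 127 CPM with dTAG-13 and at 170.0 and 145 CPM untreated. The dTAG-13 libraries were the highest and the lowest of the 4, and the untreated libraries lay between them. The fold of Smad5 was 0.990 with an interval of 0.703 to 1.39 (edgeR, adjusted p = 1.00). The GENCODE gene Gm27301 shares 100 bases of its exons on the same strand.

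Smad2 and Smad3 encode the effectors of the nodal, activin and TGF-beta branch. Smad2 (chromosome 18, 76241090 to 76311748) was at 171 and 132 CPM with dTAG-13 and at 157 and 149 CPM untreated. Smad3 (chromosome 9, 63646766 to 63757994) was at 114 and 93.2 CPM with dTAG-13 and at 113 and 102 CPM untreated. For both genes the untreated libraries again lay between the dTAG-13 libraries, with replicate 1 the higher. Smad2 had a fold of 0.991 with an interval of 0.756 to 1.30, and Smad3 a fold of 0.967 with an interval of 0.747 to 1.25 (edgeR, adjusted p = 1.00 for both).

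Smad4 (chromosome 18, 73634790 to 73703791), the common partner, varied least among the SMADs relative to its level. It was at 262 and 253 CPM with dTAG-13 and at 248 and 275 CPM untreated, so that both dTAG-13 libraries lay inside the untreated range. Its fold of 0.985 had the narrowest interval of the 10, from 0.788 to 1.23 (edgeR, adjusted p = 1.00).

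**Figure D1:**
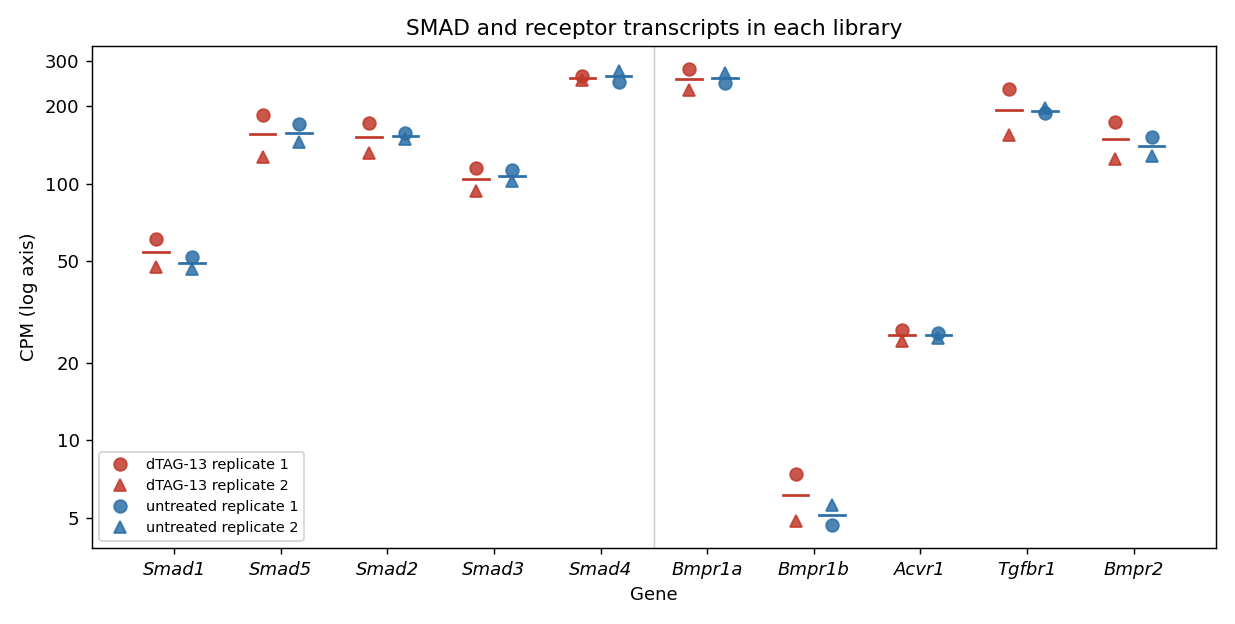
CPM (log axis) of the 5 SMAD genes, left of the grey line, and the 5 receptor genes, right of it, in each library, with dTAG-13 left of untreated for each gene, circles for replicate 1, triangles for replicate 2 and lines for group means. The groups overlap for all 10 genes, and the dTAG-13 circles lie above the dTAG-13 triangles throughout, as for Tgfbr1 at 232 and 155 CPM.

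Bmpr1a, Bmpr1b and Acvr1 encode the type I receptors of BMP ligands. Bmpr1a (chromosome 14, 34411061 to 34503336) is the broadly expressed BMP type I receptor needed in the mouse embryo for mesoderm to form. It was at 279.6 and 231 CPM with dTAG-13 and at 246 and 268 CPM untreated, the dTAG-13 libraries again being the highest and the lowest. That is a fold of 0.993 with an interval of 0.772 to 1.28 (edgeR, adjusted p = 1.00). The gene Gm17110 lies over 290 bases of its exons on the opposite strand in the GENCODE annotation, so reads there could belong to either gene. Bmpr1b (chromosome 3, 141837135 to 142169585), the receptor best known from limb cartilage and ovary, was the least abundant of the 10. It had 87 and 57 counts with dTAG-13 and 62 and 63 counts untreated, where counting error alone is 10.7% to 13.2% of a count. These are 7.42 and 4.84 CPM with dTAG-13 and 4.67 and 5.61 CPM untreated, and the high value was in dTAG-13 replicate 1 alone. Its fold of 1.19 had the widest interval, from 0.649 to 2.20 (edgeR, adjusted p = 1.00). Acvr1 (chromosome 2, 58446438 to 58566828), a type I receptor for BMPs that is also known as ALK2, was at 27.0 and 24.3 CPM with dTAG-13 and at 26.2 and 25.1 CPM untreated. The untreated libraries lay between the dTAG-13 libraries, and the fold was 0.999 with an interval of 0.756 to 1.32 (edgeR, adjusted p = 1.00).

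Tgfbr1 encodes the type I receptor of TGF-beta ligands and Bmpr2 a type II receptor of BMP ligands. Tgfbr1 (chromosome 4, 47353222 to 47414926) was at 232 and 155 CPM with dTAG-13 and at 189 and 196 CPM untreated. The dTAG-13 libraries differed far more from each other than the untreated libraries did, with means of 194 ± 54.9 CPM with dTAG-13 and 192 ± 5.16 CPM untreated (SD, n = 2 each). Its fold was 1.01 with an interval of 0.714 to 1.42 (edgeR, adjusted p = 1.00). Bmpr2 (chromosome 1, 59764279 to 59878081) was at 173 and 124 CPM with dTAG-13 and at 152 and 128 CPM untreated. In both groups replicate 1 was the higher, and the fold was 1.06 with an interval of 0.771 to 1.46 (edgeR, adjusted p = 1.00).

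**Figure D2:**
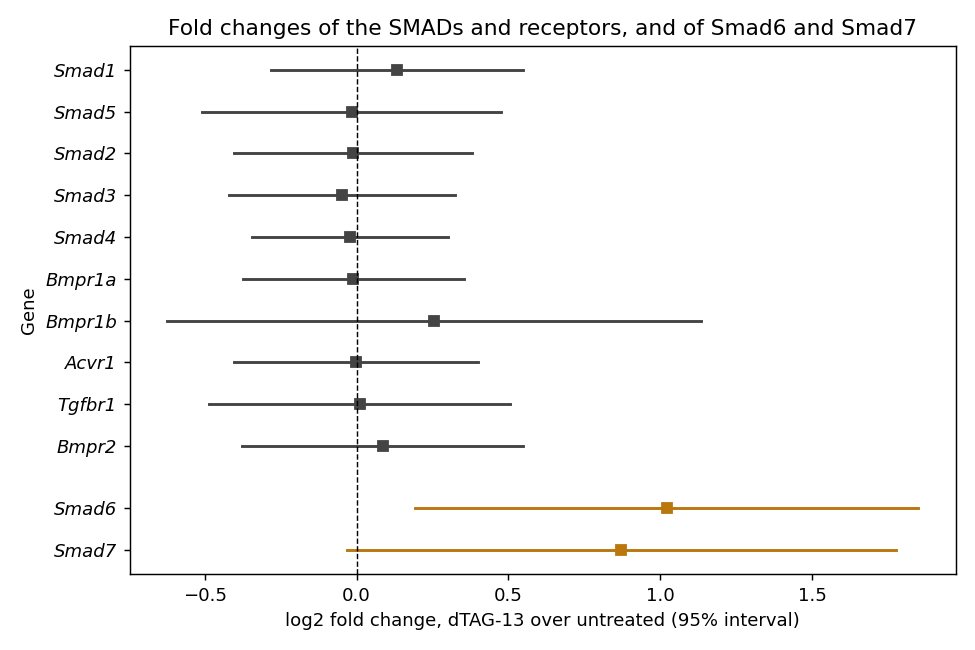
Log2 fold changes of dTAG-13 over untreated (squares) with 95% intervals (lines) from edgeR for the 10 genes, in grey, and for the inhibitory SMADs Smad6 and Smad7, in orange. The intervals of all 10 include 0, and that of Bmpr1b, from -0.62 to 1.14, is the widest of them.

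Levels of different genes were compared as CPM per kilobase of exon, with exon lengths from GENCODE, because no source used here names the annotation behind the counts. The order was the same in both groups. Smad4 was highest at 69.4 ± 1.80 with dTAG-13 and 70.4 ± 5.10 untreated (SD, n = 2 each), followed by Bmpr1a at 40.2 ± 5.43 with dTAG-13 and 40.5 ± 2.53 untreated. The place of Smad4 depends on the annotation: its RefSeq span runs 4219 bases past the GENCODE exons at the 3′ end, and with those bases its mean over the 4 libraries was 32.7, below that of Bmpr1a at 40.3. Tgfbr1, with 23.7 to 35.6 over the 4 libraries, lay just below Bmpr1a, whose range was 36.4 to 44.0 and did not overlap it. Tgfbr1, Smad5, Smad3 and Smad2 had ranges that each overlapped that of the next, Smad5 lying between 17.1 and 24.9, Smad3 between 16.8 and 20.7, and Smad2 reaching up to 19.5 with a mean of 17.3. Smad1, between 7.40 and 9.70, and Bmpr2, between 6.91 and 9.63, did not differ beyond their spread. Acvr1 followed at 5.03 to 5.58, and Bmpr1b was lowest at 0.783 to 1.24. Taking the longest GENCODE transcript as the length left the order of the means in place, but the range of Tgfbr1, 26.9 to 40.4, then overlapped that of Bmpr1a, 38.8 to 46.9, and the mean of Smad1 was 13.7 in place of 8.24.

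**Figure D3:**
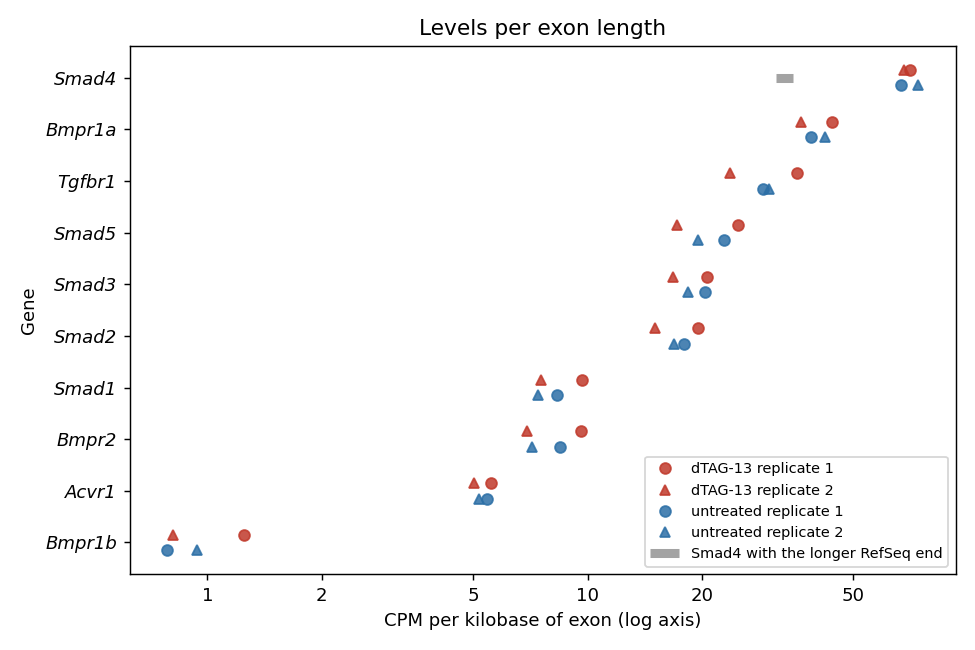
CPM per kilobase of GENCODE exon (log axis) of the 10 genes in each library, dTAG-13 above untreated in each row, circles for replicate 1 and triangles for replicate 2. Smad4 leads and Bmpr1b is last, near 1, and the grey bar shows the range of Smad4, 31.3 to 34.6, when the longer RefSeq end is included in its length.

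Ratios of related genes within a library do not depend on scaling between libraries. For every 100 counts of Smad5 there were 32.9 and 37.1 counts of Smad1 with dTAG-13 and 30.6 and 31.9 untreated, a log2 difference of 0.16. The groups did not overlap, and the exact permutation test (two-sided, n = 2 each) gave p = 0.333, the smallest that 2 libraries against 2 allow. For every 100 counts of Bmpr1a there were 2.65 and 2.10 counts of Bmpr1b with dTAG-13 and 1.90 and 2.09 untreated, a log2 difference of 0.24 (exact permutation p = 0.333). Here the nearest values of the groups, 2.10 with dTAG-13 and 2.09 untreated, were almost equal. Smad3 stood at 66.8 and 70.7 counts for every 100 of Smad2 with dTAG-13 and at 71.8 and 68.5 untreated, with overlapping groups and a log2 difference of -0.030 (exact permutation p = 0.667).

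Shares per exon length were set side by side in the same way. Smad1 and Smad5 made up 46.3% and 43.7% of the level of Smad1, Smad5, Smad2 and Smad3 together with dTAG-13, and 44.9% and 43.3% untreated. Bmpr1a made up 86.6% and 86.2% of the 3 BMP type I receptors with dTAG-13, and 86.2% and 87.3% untreated. Tgfbr1 made up 73.1% and 67.5% of the sum of Tgfbr1 and Acvr1b, the activin and nodal type I receptor, with dTAG-13, and 72.0% and 77.7% untreated. The groups overlapped in all 3 shares (exact permutation p = 0.667 for each). The ratios and shares form a family of 6 comparisons, and each had an adjusted p of 0.667 by the exact permutation test with Benjamini-Hochberg adjustment.

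The differences within a replicate number ran in opposite directions. In number 1, log2 CPM with dTAG-13 was above untreated for all 10 genes, with a median difference of 0.16 that ranged from 0.021 for Smad3 to 0.65 for Bmpr1b. In number 2 it was below untreated for 9 genes, with a median of -0.15 and a lowest value of -0.34 for Tgfbr1, and Smad1 was the exception at 0.026. All 5 receptors were higher in number 1 and lower in number 2, and Tgfbr1 had differences of 0.30 and -0.34. Over all genes tested, 25.5% were higher in number 1 and lower in number 2, and the median differences were 0.021 in number 1 and 0.0043 in number 2. Signs of small differences depend on the scaling. The TMM factors, which scale CPM between libraries, were 0.959 with dTAG-13 and 1.045 untreated in number 1. In number 2 they were 1.026 with dTAG-13 and 0.972 untreated. A smaller factor raises every CPM of its library. Without the factors, as shares of reads in genes, Smad3, Smad4, Smad5 and Acvr1 were below untreated in number 1. Acvr1 and Bmpr2 were then above untreated in number 2. Some technical measures also differed in opposite directions in the numbers. Rn28s1 took 2.33% of reads with dTAG-13 and 0.310% untreated in number 1, and 0.467% with dTAG-13 and 2.49% untreated in number 2. Reads outside genes were 25.3% with dTAG-13 and 35.7% untreated in number 1, and 29.2% with dTAG-13 and 24.1% untreated in number 2. Mitochondrial genes differed in the same direction in both numbers. They took 1.71% of reads in genes with dTAG-13 and 1.26% untreated in number 1, and 2.06% with dTAG-13 and 1.91% untreated in number 2. The part of these measures in the members' differences was not tested.

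This pattern was picked out after the values were seen. For 7 of the 10 genes, Smad5, Smad2, Smad3, Bmpr1a, Acvr1, Bmpr2 and Tgfbr1, dTAG-13 replicate 1 was above and dTAG-13 replicate 2 below both untreated libraries, which was so for 10.4% of all genes. It was also so for 4 of the 7 other receptor genes tested, Acvr2a, Acvr2b, Tgfbr2 and Tgfbr3, and for 2 of 6 co-receptors, Rgmb and Neo1. It was so for 3 of 20 SMAD regulators, Rnf111, Zfyve9 and Usp9x, and for 0 of 3 other SMADs. These genes were named after their values were seen. The counts in this paragraph used CPM scaled by TMM factors and were not repeated under other scaling. Without the factors, as shares of reads in genes, Smad5, Smad3, Acvr1 and Bmpr2 did not have this pattern. The summed CPM of the 10 genes was 1513 and 1191 in dTAG-13 replicates 1 and 2, and 1357 and 1340 in untreated replicates 1 and 2. All 10 were lower in replicate 2 than in replicate 1 with dTAG-13, against 49.6% of all genes. Without the factors, as a share of reads in genes, Smad4 was not lower. Untreated, 6 were lower in replicate 2, against 50.1% of all genes. Of the other SMADs, 3 of 3 were lower in both groups, and of the other receptors 6 of 7 with dTAG-13 and 5 of 7 untreated. Co-receptors had 4 of 6 with dTAG-13 and 5 of 6 untreated, and SMAD regulators 12 of 20 with dTAG-13 and 10 of 20 untreated. For 9 of the 10 genes the dTAG-13 libraries lay further apart on the log2 scale than the untreated libraries, against 50.3% of all genes. That held for 6 of the 7 other receptor genes, 14 of 20 SMAD regulators, 3 of 6 co-receptors and 1 of 3 other SMADs. Without dTAG-13 replicate 1 the log2 fold changes of all 10 were below 0, with a median of -0.17. Without dTAG-13 replicate 2, 9 were above 0, with a median of 0.18. No member passed in either case.

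**Figure D4:**
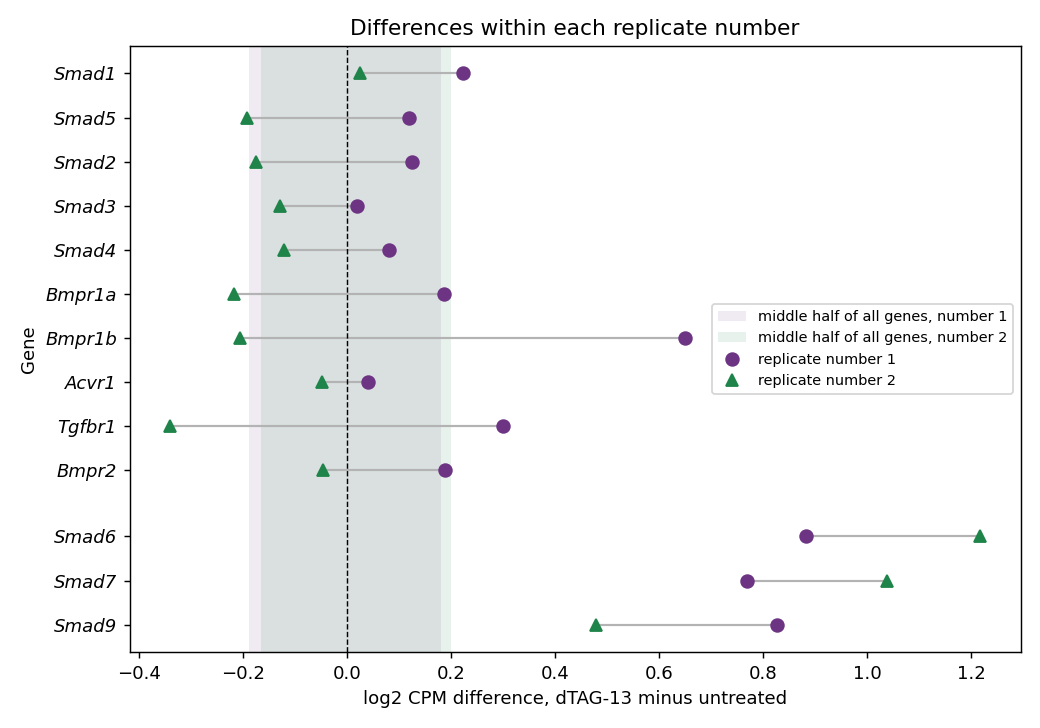
Log2 CPM difference of dTAG-13 minus untreated within replicate number 1 (circles) and number 2 (triangles) for the 10 genes and, below them, Smad6, Smad7 and Smad9. Shaded bands run from the lower to the upper quartile of all genes tested, -0.19 to 0.18 in number 1 and -0.17 to 0.20 in number 2; 9 of the 10 genes have a circle right of 0 and a triangle left of it, and the 3 lower genes lie right of 0 in both numbers.

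The remaining SMADs, which stand outside the set, lay above untreated in both numbers, and 0 of the 3 passed in edgeR over all genes (0 in DESeq2; 1 at an unadjusted p under 0.05). Smad6, an inhibitory SMAD that blocks BMP signalling and is itself induced by it, was at 21.2 and 15.1 CPM with dTAG-13 and at 11.4 and 6.41 CPM untreated. Its log2 fold change was 1.02 ± 0.35 (SE; edgeR, adjusted p = 1.00). Smad7, the inhibitory SMAD of both branches, was at 47.3 and 31.4 CPM with dTAG-13 and at 27.7 and 15.2 CPM untreated, a log2 fold change of 0.87 ± 0.35 (edgeR, adjusted p = 1.00). For these 2 of the 3 genes the groups did not overlap, against 26.2% of all genes. In each group replicate 1 was above replicate 2 for both. Smad9, the third effector of the BMP branch, was low, at 3.07 and 0.934 CPM with dTAG-13 and at 1.66 and 0.623 CPM untreated, and its groups overlapped.

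Of 9 other receptor genes listed, 7 had enough counts and 0 passed in edgeR or DESeq2 (0 at an unadjusted p under 0.05), with 2 above and 5 below untreated and a median log2 fold change of -0.11. Acvr1b, the activin and nodal type I receptor, was at 57.9 and 50.4 CPM with dTAG-13 and at 49.6 and 38.0 CPM untreated. The groups did not overlap for this 1 of the 7, against 26.2% of all genes. Acvr2b, a type II receptor for activin, nodal and BMPs, was at 393 and 293 CPM with dTAG-13 and at 369 and 373 CPM untreated. Eng, an endothelial co-receptor, and Acvrl1, an endothelial type I receptor, had log2 fold changes of -0.14 and -0.62, and Acvrl1 was at 2.64 and 0.170 CPM with dTAG-13 and at 3.84 and 0.445 CPM untreated. Acvrl1 was thus far lower in the replicates numbered 2 of both groups, while Eng was not, at 6.57 and 8.24 CPM with dTAG-13 and 8.36 and 7.92 CPM untreated.

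Of 7 co-receptors and decoys, 6 were tested and 0 passed in edgeR or DESeq2, with 2 at an unadjusted p under 0.05 and 3 above and 3 below untreated. Bambi, a decoy receptor without a kinase that dampens BMP and TGF-beta signals, was at 22.0 and 22.8 CPM with dTAG-13 and at 14.6 and 11.7 CPM untreated (log2 fold change 0.77 ± 0.22, edgeR, adjusted p = 0.948). Tdgf1, the nodal co-receptor Cripto, was at 56.4 and 40.7 CPM with dTAG-13 and at 36.8 and 30.3 CPM untreated (log2 fold change 0.53 ± 0.20, edgeR, adjusted p = 1.00). The groups did not overlap for these 2 of the 6, against 26.2% of all genes. Cfc1, a nodal co-receptor of the same family, and Rgma, a BMP co-receptor, had log2 fold changes of 0.73 ± 0.74 and -0.69 ± 0.69, with overlapping groups.

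Among 20 genes for regulators of SMADs, which include ubiquitin ligases, corepressors and phosphatases, 0 passed in edgeR or DESeq2 and 1 had an unadjusted p under 0.05. Of these, 15 were above and 5 below untreated, with a median log2 fold change of 0.069. Lemd3, an inner nuclear membrane protein that binds SMAD2 and SMAD3 and antagonizes them, was at 37.5 and 32.6 CPM with dTAG-13 and at 25.8 and 25.8 CPM untreated. Pmepa1, a TGF-beta-induced inhibitor of SMAD2 and SMAD3, was at 5.63 and 5.27 CPM with dTAG-13 and at 3.47 and 2.05 CPM untreated. Skil, which encodes the corepressor SnoN, and Foxh1, the DNA-binding partner of SMAD2 in nodal responses, had log2 fold changes of 0.34 ± 0.17 and 0.30 ± 0.20. The groups overlapped for Foxh1 and not for Lemd3, Pmepa1 or Skil. They did not overlap for 5 of the 20 regulators, near the 26.2% of all genes.

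Marker lists of several cell types had median log2 fold changes larger in size than that of the 10 genes, at 1.24 for epithelial, 0.70 for gut endoderm, -0.69 for presomitic, -0.88 for somite and -1.85 for neural tube markers. In edgeR over all genes 0 of these markers passed, and their part in the members' values was not tested. The 6 epithelial markers summed to 870.5 and 1588 CPM with dTAG-13 and to 490.2 and 664 CPM untreated, with 6 of 6 above untreated (5 at an unadjusted p under 0.05, 4 called by DESeq2). The 5 gut endoderm markers, of which Krt8 and Cldn6 are also in the epithelial list, summed to 317 and 514 CPM with dTAG-13 and to 177 and 180.2 CPM untreated (4 unadjusted, 2 by DESeq2). Both DESeq2 calls were Krt8 and Cldn6 themselves, and of the other 3, Foxa2, Apela and Sox17, DESeq2 called 0, with Sox17 at a log2 fold change of 0.24. Markers of neural tube, presomitic mesoderm and somites lay on the other side. The 6 neural tube markers summed to 109 and 110.0 CPM with dTAG-13 and to 211 and 254 CPM untreated, with 6 of 6 below (6 unadjusted, 3 by DESeq2). The 6 presomitic markers summed to 130 and 97.7 CPM with dTAG-13 and to 175 and 188 CPM untreated. Of these, 5 of 6 were below (5 unadjusted, 0 by DESeq2). Ripply2, near 0 with dTAG-13, is in both counts of 5, and DESeq2 gave it no adjusted p. The 6 somite markers summed to 156 and 105 CPM with dTAG-13 and to 303 and 184 CPM untreated, with 6 of 6 below (4 unadjusted, 0 by DESeq2). The sums of the 5 tail bud and 4 endothelial markers differed more between replicate numbers than between groups. Tail bud markers summed to 208 and 348 CPM with dTAG-13 and to 221 and 492 CPM untreated, and endothelial markers to 129.7 and 46.7 CPM with dTAG-13 and to 154 and 39.4 CPM untreated (0 unadjusted and 0 by DESeq2 in both lists).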

How the data were processed

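RNA was sequenced from 2 dTAG-13 and 2 untreated libraries of somitic gastruloids. Libraries were made from total RNA after ribosomal RNA depletion, per the labels' protocols. The deposited values are raw counts of reads per gene symbol, 1 table a library, without normalization. Per the submitters' processing notes, which assign no roles, the builds were mm10 and GRCm38.p6 and the tools DESeq2 1.34.0, HTSeq 0.12.4, STAR 2.7.6a and fastp 0.20.1. No source used here gives the annotation or strand setting of the counting, so reads of genes that overlap on opposite strands cannot be told apart. Summary lines that name no gene entered neither library sizes nor tests; reads outside genes were 25.3% and 29.2% of reads in the dTAG-13 libraries and 35.7% and 24.1% in the untreated ones, and ambiguous reads 0.209% to 0.240%. Replicates of a group were not 1 library deposited again (chi-square per degree of freedom 30.9 and 36.3).

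The test was edgeR 4.0.16 in R 4.3.3: filterByExpr by group (minimum count 10, minimum total 15), TMM factors, robust glmQLFit with the group as the only term, a two-sided glmQLFTest and Benjamini-Hochberg adjustment over 13602 genes. Standard errors are |log2 fold change| / √F, and 95% intervals use the test's degrees of freedom. Within-number differences use log2 CPM with a prior count of 2; the titles do not say what a number stands for. DESeq2 1.42.0 was run on the same filtered genes as an alternative. The edgeR fit was tested on simulated data before use. Coordinates and promoter windows come from RefSeq tables of GRCm38.p6, and exon lengths and overlaps from GENCODE vM21, of the same build. From each further list, the text names up to 4 genes by smallest p among those whose average log2 CPM was 0 or more, and Zeb2. The members, lists and rules were chosen with earlier results of these data known. Counting errors describe counting alone, because PCR copies cannot be recognised without molecular identifiers.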

Additional observations from a re-analysis of the deposited data

How the results depend on the processing

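No member passed an adjusted p of 0.05 under any alternative run: RLE factors, library totals alone, no filter, at least 50 counts in 2 libraries, DESeq2, a replicate block, a fit without Rn28s1 (added after seeing the data) and leaving out each library. The number of genes called over the whole table was 0 in edgeR with the group alone, 40 with DESeq2 and 636 with the replicate block, 395 higher and 241 lower; the cause was not tested. The block called 4.68% of all genes and 0 of the 10 members. Of the further lists it called 2 of 3 other SMADs, Smad6 and Smad7, both higher with dTAG-13. It called 3 of 6 co-receptors, Bambi and Tdgf1, both higher, and Rgma, which was lower. It called 0 of 7 other receptors and 0 of 20 SMAD regulators. Of the markers it called 6 of 6 epithelial, 6 of 6 neural tube, 5 of 6 presomitic, 5 of 6 somite, 4 of 5 gut endoderm, 1 of 5 tail bud (Nkx1-2) and 0 of 4 endothelial genes. Replicate differences of the groups correlated at 0.63 across genes, which are not independent replicates; with 2 pairs and no label that ties equal numbers, the numbers were not taken to pair the libraries.

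The sign of Tgfbr1, 0.0099 in log2, turned to -0.022 with library totals alone, -0.011 with at least 50 counts, -0.018 with the block and -0.0098 without Rn28s1; the other 9 kept theirs in these settings. Leaving out 1 library turned the sign of every member at least once: Smad1 ranged from -0.060 to 0.28, Smad5 from -0.31 to 0.21, Smad2 from -0.22 to 0.14, Smad3 from -0.21 to 0.072, Smad4 from -0.11 to 0.055, Bmpr1a from -0.16 to 0.10, Bmpr1b from -0.086 to 0.51, Acvr1 from -0.080 to 0.051, Bmpr2 from -0.17 to 0.28 and Tgfbr1 from -0.31 to 0.25. Except for Smad4, the lowest value came without dTAG-13 replicate 1 and the highest without dTAG-13 replicate 2. Bmpr1b had the fewest counts and the widest interval of the 10; counting error and spread between replicates were not separated.

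The replicate block left the log2 differences of the 3 ratios at -0.030, 0.16 and 0.24, as it must in a balanced design; without 1 library the Smad3 to Smad2 ratio ranged from -0.071 to 0.011, Smad1 to Smad5 from 0.073 to 0.25 and Bmpr1b to Bmpr1a from 0.074 to 0.41. The shares and both other exon lengths were also added after seeing the data.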
